A study of Mus musculus with 24 samples.

Results

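The cornified envelope is the sheath of cross-linked protein that squamous epithelial cells lay down under the plasma membrane as they end their differentiation and become the flat, dead cells of the surface. Small structural proteins such as loricrin, involucrin and the small proline-rich proteins are joined to one another by transglutaminases, and the finished sheath gives stratified epithelia of skin, mouth, tongue, oesophagus and rodent forestomach their mechanical strength and barrier. Basal cells of the same epithelium make the keratins Krt5 and Krt14 and do not yet make envelope proteins.

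Here 10 envelope genes (Lor, Ivl, Sprr1a, Sprr1b, Sprr3, Krtdap, Sbsn, Tgm1, Tgm3 and Cnfn) were followed in RNA-seq of Trex1-KO mice. They were taken by symbol in GENCODE M21, and each of the 10 symbols matched 1 of the 54532 genes counted in each file. The series holds 24 samples, 3 from untreated mice (here control) and 3 from mice given the STING antagonist SN-011, in each of tongue, stomach, skeletal muscle and heart. All mice, controls included, lacked the DNA exonuclease Trex1, whose loss activates the cGAS-STING pathway, so no comparison with wild-type tissue was made here. By the sample labels SN-011 was given at 5 mg/kg, in 3 doses a week over 4 weeks, and the controls were untreated. The methods of the study instead describe daily intraperitoneal injections at a higher dose over a shorter course, from an age of about a month, with controls given vehicle, and which schedule these samples had could not be settled here. Neither source says whether tissues were pooled between animals. Values are CPM, the counts of a gene as a share of the library total scaled by edgeR's TMM method within a tissue, and a fold change is SN-011 against control on the log2 scale unless another comparison is named. P-values were adjusted over all genes tested in a comparison, and with 3 samples a group they measure the spread between these samples.

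Total counts ran from 14253416 to 18443329 per sample, so that 3 counts, taken as the floor, came to 0.151 to 0.245 CPM. Control replicate 1 of every tissue was the only sample of its kind with Xist, at 3060 to 13811 counts against 0 to 20 in the other 20 samples, and it had 0 to 3 counts of the Y-linked Ddx3y against 825 to 1898. Hence 1 control in each tissue was female and all other samples were male. Trex1 had 0 counts in all 24 samples, which counting that sets aside reads shared with the overlapping gene Atrip could also give. Tongue controls 2 and 3 carried transcripts of gastric glands. Their summed level over 11 gastric gland genes was 3363 and 2625 CPM, against 16.6 to 54.9 CPM in the other 4 tongue samples, and results that rest on these libraries are given with and without them. The same sum was 3187 and 323 CPM in heart controls 2 and 3, and 765 and 323 CPM in muscle controls 2 and 3. The other heart and muscle samples had 7.93 to 57.9 CPM.

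The 10 genes lie on 4 mouse chromosomes (GRCm38). Lor, Sprr1b, Sprr3, Sprr1a and Ivl belong to the epidermal differentiation complex on chromosome 3, where Lor spans chr3:92080271-92083142, Sprr1b chr3:92436809-92438789, Sprr3 chr3:92456502-92458720, Sprr1a chr3:92483952-92485895 and Ivl chr3:92570902-92573735, all on the minus strand. Cnfn (chr7:25367620-25369724, minus strand) and the neighbours Sbsn (chr7:30751471-30756134, plus strand) and Krtdap (chr7:30787896-30791097, plus strand) lie on chromosome 7. Tgm1 is at chr14:55700009-55713926 on the minus strand, and Tgm3 at chr2:130012349-130050399 on the plus strand. In the annotation Tgm1 and Tgm3 each overlap a gene of the opposite strand (Gm49067 and Mir6339), and Sbsn overlaps Tmem147os on its own strand. The counting was not stated to use strand, so reads in those overlaps could be shared or set aside. The other 7 members overlap no annotated gene.

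All 10 members had a promoter sequence in RefSeq (GRCm38.p6), and the 250 bases before the start were searched on both strands for the AP-1 letters TGANTCA and the TATA box letters TATAAA. An AP-1 match was present before 6 of the 10 members (Lor, Ivl, Sprr1a, Sprr1b, Krtdap and Sbsn) and in 6.75% of the 32851 mouse promoter windows. A TATA box match was present before 7 of the 10 (Lor, Ivl, Sprr1a, Sprr1b, Sprr3, Krtdap and Tgm3), and in 12.4% of all windows. The 2 motifs do not overlap in any of these windows. Sequences are shown for Lor, the member with the highest level in control tongue, for Sprr1a, the member that stood apart from the rest in the stomach, and for Cnfn, which varied with Lor and holds neither motif in this window. Each is written 5′ to 3′ in the direction of transcription, up to the base before the start, with matches in capitals. The windows are chr3:92083143-92083392 for Lor, chr3:92485882-92486131 for Sprr1a and chr7:25369725-25369974 for Cnfn. Starts here are those of the RefSeq promoters, and the last bases of the Sprr1a window fall inside the gene span given above.
Lor: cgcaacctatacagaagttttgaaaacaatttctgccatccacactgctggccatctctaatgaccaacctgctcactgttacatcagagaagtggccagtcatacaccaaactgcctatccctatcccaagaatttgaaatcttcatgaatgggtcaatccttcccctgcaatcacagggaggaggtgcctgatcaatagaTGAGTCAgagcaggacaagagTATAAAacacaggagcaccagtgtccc
Sprr1a: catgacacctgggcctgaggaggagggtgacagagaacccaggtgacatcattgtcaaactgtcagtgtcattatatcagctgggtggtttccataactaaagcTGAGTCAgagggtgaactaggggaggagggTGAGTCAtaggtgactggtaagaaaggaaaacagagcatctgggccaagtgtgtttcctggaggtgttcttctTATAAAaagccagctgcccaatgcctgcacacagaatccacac
Cnfn: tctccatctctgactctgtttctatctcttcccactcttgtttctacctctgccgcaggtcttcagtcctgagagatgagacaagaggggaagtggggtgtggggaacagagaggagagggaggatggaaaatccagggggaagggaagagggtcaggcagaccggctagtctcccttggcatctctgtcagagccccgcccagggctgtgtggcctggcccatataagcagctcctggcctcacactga
In Lor the AP-1 match begins 48 bases and the TATA box match 27 bases before the start. Sprr1a holds 2 AP-1 matches, which begin 146 and 116 bases before the start, and its TATA box match begins 43 bases before it. A match is only a run of letters, and binding was not measured.

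In untreated whole tissue of Trex1-KO mice the envelope genes had much higher levels in tongue than in stomach. Of the 10, 9 were higher in tongue past an adjusted p of 0.05. The background was high, since 20.3% of the 18644 genes tested were higher in control tongue and 19.1% lower. The median difference of the 10 members was 6.08 on the log2 scale, beside 0.03 over all genes tested. A list of 8 basal squamous genes, Krt5 and Krt14 among them, had a median of 5.56, with 7 past the threshold as higher. Per count of Krt5 and Krt14 in the same library, Sprr1a, Krtdap and Ivl were higher in every stomach control than in every tongue control. Lor, Sprr3, Sbsn, Tgm1 and Cnfn overlapped. Tgm3 went the other way and was lower in every stomach control than in every tongue control. It had 14, 18 and 0 counts in stomach controls, beside 1094, 897 and 781 of Krt5 alone. Its lowest tongue control had 3.30 counts per 100 of Krt5 and Krt14. Sprr1b had 0 counts in the stomach controls. The members thus differed in direction per basal keratin count, and the levels do not separate the share of squamous tissue from the level per squamous cell. Tgm3, a soluble transglutaminase that is activated by proteolysis, had a tongue level of 1084 ± 848 CPM (SD, n = 3) and a stomach level of 0.751 ± 0.650 CPM (SD, n = 3), a log2 difference of 10.53 ± 1.16 (SE, adjusted p = 3.21e-05). Lor, the main protein of the envelope in skin, had a level of 3668 ± 3550 CPM in tongue and 23.9 ± 21.6 CPM in stomach (log2 difference 7.26 ± 1.18, adjusted p = 0.000497). Tgm1, the membrane-bound transglutaminase, differed by 6.62 ± 0.63 (adjusted p = 1.28e-05), Sbsn (suprabasin, a secreted protein of suprabasal cells) by 6.08 ± 0.83 and Cnfn (cornifelin) by 6.08 ± 1.03. Sprr1b had 0 counts in all 3 stomach controls, and its lowest control tongue level of 7.04 CPM was at least 29.1-fold higher than the per-library floor of 3 counts. Sprr1a was the member that did not pass, with a log2 difference of 1.96 ± 1.14 and an adjusted p of 0.195. Its control values were 4.32, 253 and 699 CPM in tongue and 142, 72.3 and 27.9 CPM in stomach, and the groups overlap. With tongue controls 2 and 3 left out, 7 members passed as higher in tongue, beside 11.3% of all genes. The direction of Sprr1a turned in that fit, at −4.29 (adjusted p = 0.0286), so that it was then lower in tongue, as were 9.8% of all genes. Ivl (0.52) and Sprr3 (−0.05) did not pass there.

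**Figure D1:**
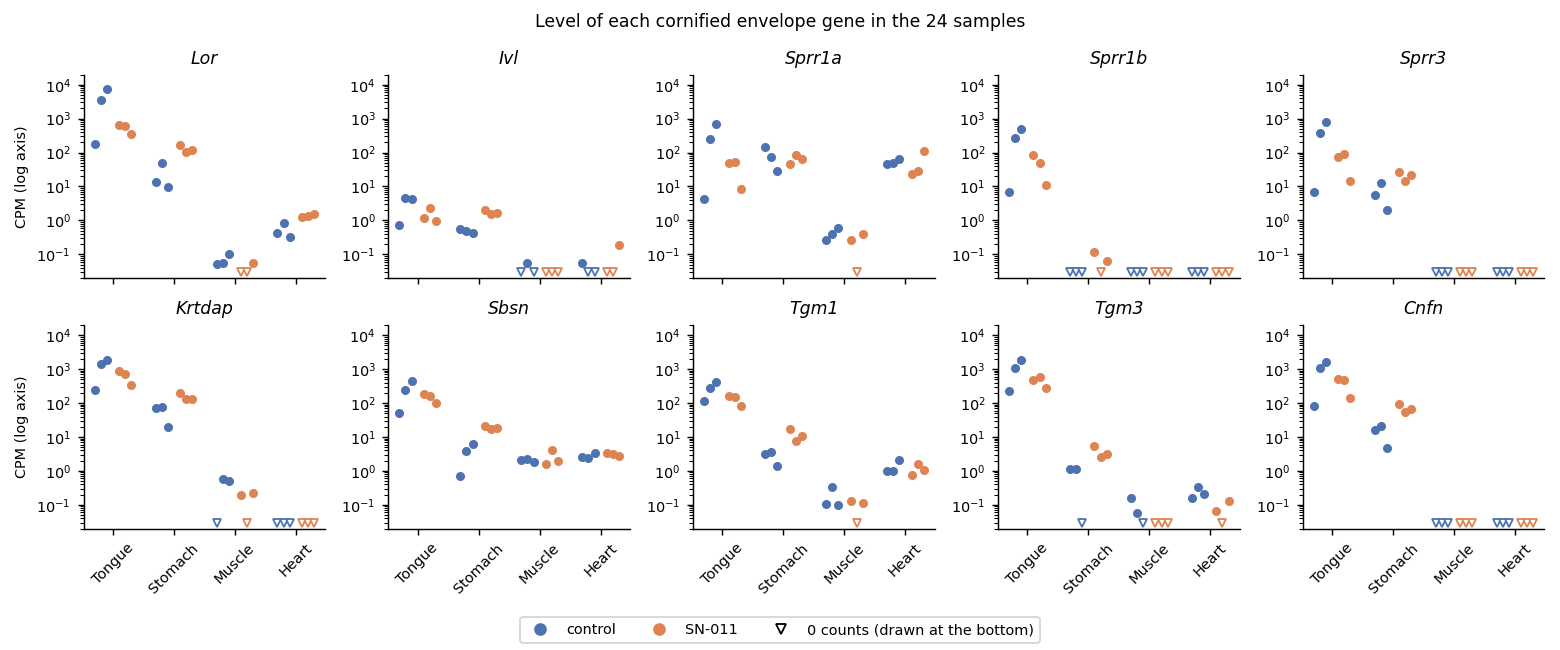
Level of the 10 envelope genes in every sample, in CPM on a log axis, by tissue, with controls in blue and SN-011 samples in orange, in replicate order from left to right. In tongue, control 1 lies below the other controls for every member, and in stomach the SN-011 samples lie above the controls for all members but Sprr1a and Sprr1b.

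Per kilobase of exon, which allows levels of different genes to be set side by side, the order in control tongue was Lor (2062 ± 1995 CPM per kb, SD, n = 3), Krtdap (1721 ± 1223), Cnfn (1309 ± 1108), Sprr1a (395 ± 436), Sprr3 (330.4 ± 333), Sprr1b (307 ± 295), Tgm3 (262 ± 205), Tgm1 (84.3 ± 48.2), Sbsn (70.1 ± 56.4) and Ivl (1.69 ± 1.14). Only Sbsn and Ivl, the last pair in that order, were neighbours whose sample ranges did not overlap. In control stomach the order began with Sprr1a (100.2 ± 71.4 CPM per kb) and Krtdap (82.0 ± 45.3), and went on to Cnfn (19.2 ± 11.4), Lor (13.4 ± 12.1) and Sprr3 (5.44 ± 4.24). Sbsn, Tgm1, Ivl and Tgm3 followed at 1.02, 0.858, 0.259 and 0.182 CPM per kb, and Sprr1b at 0. There the ranges were apart between Krtdap and Cnfn and between Tgm1 and Ivl.

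In the tongue, all 10 members had a lower mean in SN-011 mice than in controls, but the groups overlapped for every one of them and none passed the adjusted threshold. The median of the 10 fold changes was −1.28, beside −0.01 over all 16587 genes tested. At an unadjusted p under 0.05, 1 member was lower and 0 were higher, where the background was 7.33% lower and 5.17% higher. Groups that did not overlap were found for 0 members, and for 9.4% (higher) and 8.38% (lower) of all genes. Over all genes 0% passed the adjusted threshold in each direction by edgeR's quasi-likelihood test, and by DESeq2 and by edgeR's exact test no member passed either, where 1.77% and 1.12% of all genes passed as lower.

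The overlap came with a wide spread among the tongue controls that all members shared, with control 1 the lowest control in each. Lor had a level of 178 CPM in control 1, 3551 in control 2 and 7274 in control 3, and of 669, 619.6 and 353 CPM in SN-011 mice 1, 2 and 3. The SN-011 samples thus lay above control 1 and far below the other controls, and the fold change was −2.74 ± 1.05 (SE, unadjusted p = 0.0336, adjusted p = 0.373). Sprr1a, a small proline-rich protein that bridges other envelope proteins, had 4.32, 253 and 699 CPM in the controls and 49.3, 51.1 and 8.66 CPM after SN-011 (−3.13 ± 1.42, adjusted p = 0.415). Its relative Sprr1b had 7.04, 261 and 497 CPM, and after SN-011 82.1, 49.0 and 10.96 CPM (−2.43 ± 1.26, adjusted p = 0.454). For Sprr3, the small proline-rich protein of internal squamous epithelia, the controls had 6.70, 385 and 820.1 CPM and the SN-011 samples 73.5, 91.4 and 14.6 CPM (−2.75 ± 1.35, adjusted p = 0.44). In these 3 genes control 1 was the lowest of the 6 samples and SN-011 mouse 3 the next. Ivl, the early scaffold of the envelope in skin, was at a low level throughout, at 0.738, 4.73 and 4.31 CPM in controls and 1.19, 2.39 and 0.934 CPM after SN-011 (−1.11 ± 0.70, adjusted p = 0.529).

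Among the secreted and associated proteins, Krtdap, a small protein of differentiating keratinocytes, had 238, 1432 and 1835 CPM in controls and 872, 724 and 337 CPM after SN-011 (−0.86 ± 0.68, adjusted p = 0.602). Sbsn had 52.2, 249 and 461 CPM against 179.7, 165 and 101.2 CPM (−0.77 ± 0.66, adjusted p = 0.624). Cnfn had 80.2, 1091 and 1652 CPM against 517, 474 and 138 CPM (−1.32 ± 0.94, adjusted p = 0.566). Of the transglutaminases, Tgm1 had 112, 272 and 416 CPM in controls and 160.2, 155 and 80.3 CPM after SN-011 (−1.02 ± 0.47, adjusted p = 0.422), and SN-011 mouse 3 was here the lowest sample. Tgm3 had 233, 1089 and 1929 CPM against 491, 608 and 287 CPM (−1.23 ± 0.67, adjusted p = 0.468), with control 1 the lowest. Across the 6 tongue samples the members varied together, with a median Pearson r of log2(CPM + 1) between a member and the other 9 of 0.90 (Ivl) to 0.99 (Sprr3), as a description over 6 libraries that share depth and tissue sampling.

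The direction of the tongue comparison rested on which controls were in it. Without control 1, the female control, 9 of the 10 members passed the adjusted threshold, all lower after SN-011 (Lor −3.30, adjusted p = 0.00231), and Ivl did not. In that fit 8.04% of all genes passed as lower. With controls 2 and 3 left out, a choice made after the gastric transcripts were seen, all 10 fold changes turned positive, from 0.24 (Tgm1) to 3.16 (Sprr3), and 0 passed, where 0.227% of all genes passed as higher. That fit has a lone control, which is assumed to vary like the SN-011 samples. The gastric RNA in controls 2 and 3 came to 4.06% and 5.2% of the summed gastric gland level of the stomach control of the same number, and to 10.9% and 19.8% for the single gastric gene with the highest share. Whether sex or the sampling of the tissue had a part in the position of control 1 was not tested, and sex cannot be told apart from that single library.

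**Figure D2:**
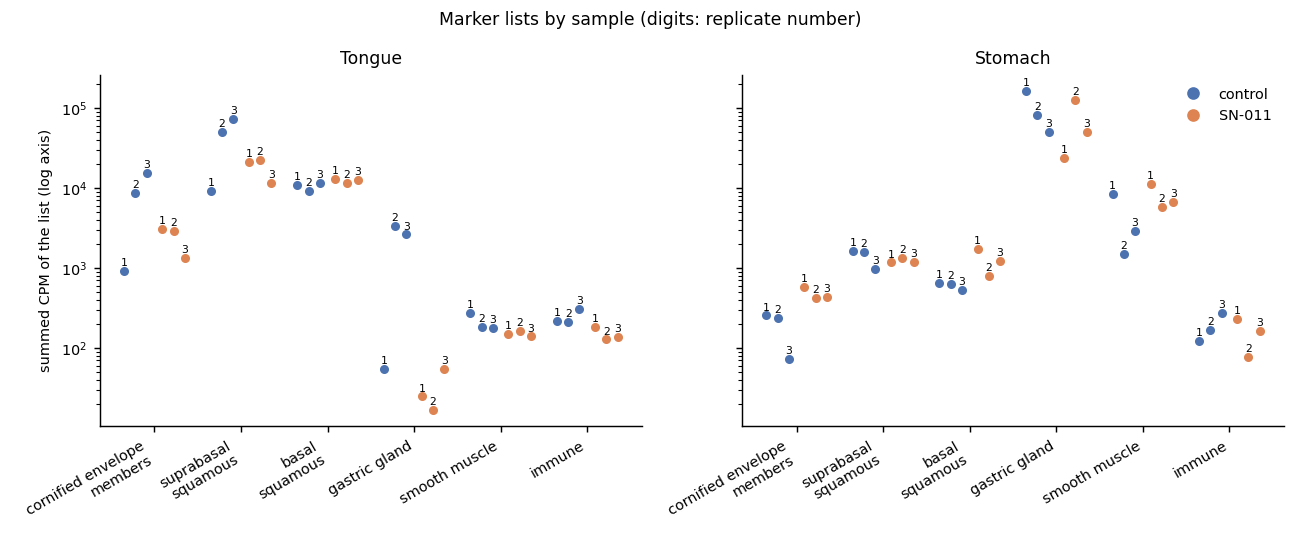
Summed CPM of marker lists in each tongue and stomach sample, on a log axis, with the replicate number above each point. The members and the suprabasal list are lowest in tongue control 1 while the basal list stays within 9133 to 12980 CPM across tongue samples, and the gastric gland list is high in tongue controls 2 and 3.

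Markers of other layers and cells gave the following levels beside the tongue result. The 8 basal squamous genes summed to 9133 to 11606 CPM in controls and 11572 to 12980 CPM after SN-011, and 5 of the 8 had a positive and 3 a negative fold change. In that sum control 1 was at the middle of the control values, but single genes differed. Krt15 had 31952, 7047 and 10971 counts in controls 1, 2 and 3, and Col17a1 13264, 7681 and 9975. Itgb4 and Dst were also highest in control 1, Krt14 was lowest there, and Krt5, Trp63 and Itga6 lay between the other controls in CPM. The 17 suprabasal genes, keratins and desmosome proteins of the layers above, summed to 9205, 50476 and 74038 CPM in controls 1, 2 and 3 and to 11704 to 22460 CPM after SN-011. In that list 16 of 17 fold changes were negative and 0 passed. Immune markers summed to 213 to 304 CPM in controls and 128 to 182 CPM after SN-011, but S100a8 alone gave 163 CPM of this sum in control 3, which without it came to 140.3 CPM, inside the range of the SN-011 samples without it (126 to 179 CPM), and 0 immune genes had groups that did not overlap. The smooth muscle sum of 179 to 273 CPM in controls and 139 to 163 CPM after SN-011 was carried by Smtn (132 to 196 against 83.9 to 91.5 CPM), and 3 of the 6 smooth muscle genes had a positive and 3 a negative fold change. In bulk tissue, fewer cells of a type and less RNA per cell cannot be told apart.

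In the stomach the order was the opposite. The rodent stomach holds a squamous forestomach beside its glands, and 8 of the 9 members tested had a higher level in all 3 SN-011 samples than in all 3 controls. The background for such a separation was 17.8% higher and 15.2% lower among the 17031 genes tested. At an unadjusted p under 0.05, 7 members were higher and 0 lower, where the background was 13.2% and 11.4%. None passed the adjusted threshold by edgeR's quasi-likelihood test, and neither did any other gene (0% in each direction). The lowest adjusted p among the members was 0.0715 (Cnfn). By DESeq2 and by edgeR's exact test 6 of the 9 passed, all higher, where 7.5% and 6.66% of all genes passed as higher. The median of the 9 fold changes was 2.17, beside 0.00 over all genes.

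Lor in the stomach had 13.1, 48.7 and 9.79 CPM in controls 1, 2 and 3 and 165, 101.8 and 115 CPM in SN-011 mice 1, 2 and 3, a fold change of 2.42 ± 0.59 (SE, adjusted p = 0.079). Control 2 was the highest control, and the lowest SN-011 sample was still above it. Sprr3 had 5.57, 12.3 and 2.09 CPM in controls and 26.6, 14.0 and 22.1 CPM after SN-011 (1.65 ± 0.59, adjusted p = 0.14), with little space between the groups. Ivl had 0.565, 0.499 and 0.428 CPM against 2.00, 1.52 and 1.60 CPM (1.77 ± 0.61, adjusted p = 0.132), so a gene at a low level had the same order. Sprr1a departed from the others. It had 142, 72.3 and 27.9 CPM in controls and 46.9, 86.9 and 66.3 CPM after SN-011, groups that overlap, with a fold change of −0.27 ± 0.52 (95% interval −1.46 to 0.91, adjusted p = 0.774), and this sign turned with library size alone as the scaling. Its median r with the other members over the 6 stomach samples was 0.09, where the other 9 members had 0.63 to 0.95. Sprr1b was not tested in the stomach, where its highest level was 0.118 CPM, under the floor.

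Of the secreted and associated proteins, Krtdap had 72.1, 74.7 and 20.2 CPM in stomach controls and 198, 134 and 134 CPM after SN-011 (1.48 ± 0.47, adjusted p = 0.119). Sbsn had 0.726, 3.99 and 6.37 CPM against 20.5, 17.4 and 17.8 CPM (2.31 ± 0.63, adjusted p = 0.0934). Cnfn, an envelope protein, had 16.3, 20.4 and 4.60 CPM against 91.6, 54.0 and 66.4 CPM (2.36 ± 0.50, adjusted p = 0.0715). All 3 genes had clear space between the groups. Of the cross-linking enzymes, Tgm1 had 3.07, 3.68 and 1.39 CPM in controls and 17.7, 7.85 and 10.99 CPM after SN-011 (2.17 ± 0.50, adjusted p = 0.0753). Tgm3 had 1.13, 1.12 and 0 CPM against 5.42, 2.57 and 3.13 CPM (2.32 ± 1.03, adjusted p = 0.207). In both enzymes SN-011 mouse 1 was the highest sample.

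**Figure D3:**
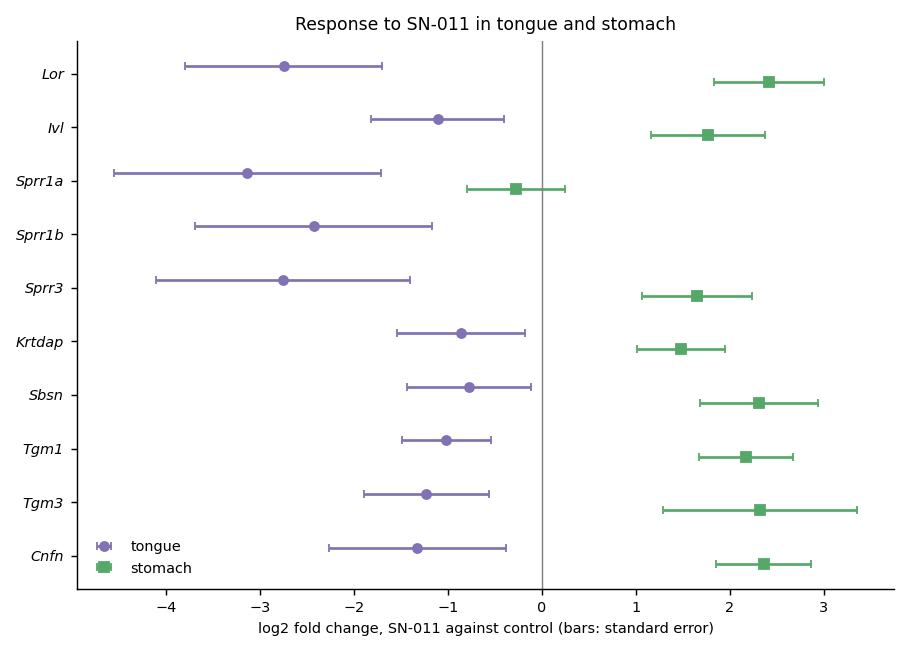
Fold change of each member in tongue (circles) and stomach (squares) on the log2 scale, with bars for the standard error. All 10 tongue values lie below 0 and 8 of the 9 stomach values above it, and no single value passed the adjusted threshold.

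The response in tongue and in stomach was compared directly, as the tongue fold change minus the stomach fold change in 1 fit of both tissues. Control 1 was female in every tissue, so same-numbered samples of a treatment may come from the same mouse, which the labels do not state. The fit took the samples as independent, and a fit that blocks on those numbers is given below among the alternatives. All 10 differences were negative, with a median of −3.37 beside −0.05 over the 18644 genes tested. At an unadjusted p under 0.05, 8 members had a negative and 0 a positive difference, where the background was 9.7% negative and 6.07% positive, and 0 members passed the adjusted threshold, which 0.00536% of all genes passed as negative and 0% as positive. The difference was −3.18 ± 0.72 (SE) for Tgm1 (adjusted p = 0.1249), −5.14 ± 1.35 for Lor (adjusted p = 0.146), −3.07 ± 0.97 for Sbsn (adjusted p = 0.188) and −3.66 ± 1.21 for Cnfn (adjusted p = 0.2). Sprr1a (adjusted p = 0.415) and Sprr1b (adjusted p = 0.672) were the members with an unadjusted p over the threshold. DESeq2 passed 4 members as negative, beside 3.11% of all genes, and without tongue control 1 the number was 5, beside 1.18% of all genes. With tongue controls 2 and 3 left out 0 members and 0% of all genes passed as negative, and Sprr1a (3.37) and Sprr3 (1.53) turned positive.

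The stomach libraries also differed in how much basal squamous RNA they held. Krt5 had 88.3, 55.9 and 41.8 CPM in stomach controls and 526, 133 and 301 CPM after SN-011. Krt14 followed, with 94.1, 66.2 and 37.6 CPM against 638, 129 and 371 CPM. Of the 8 basal genes 6 were higher in every SN-011 sample than in every control, and 1 (Itga6) was lower in every one. Over all genes 17.8% separated in this way as higher and 15.2% as lower. The sum of the 8 was 528 to 644 CPM in controls and 801 to 1744 CPM after SN-011. The suprabasal genes summed to 984 to 1616 CPM in controls and 1173 to 1333 CPM after SN-011, groups that overlap. Of 14 tested, 9 fold changes were positive and 5 negative. In that list 8 genes were higher and 2 lower in every SN-011 sample than in every control. The smooth muscle markers of the stomach wall summed to 1498 to 8402 CPM in controls and 5839 to 11206 CPM after SN-011, and the gastric gland genes to 50472 to 165746 against 23787 to 126998 CPM, and both of these sums overlap.

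Each member was therefore also set against the summed counts of Krt5 and Krt14 in the same library, so that a member is read per unit of basal keratin RNA. In the stomach the members' ratios were then not higher as a group after SN-011. Of 8 members with over 3 counts in every stomach sample, 3 ratios were higher and 5 lower after SN-011, with a median difference of −0.21 on the log2 scale. Lor came to 7.21, 39.9 and 12.3 counts per 100 basal keratin counts in controls and 14.2, 38.9 and 17.2 after SN-011, a difference of 0.47 with groups that overlap (exact permutation p = 0.6, two-sided). Tgm1 came to 1.68, 3.01 and 1.75 counts per 100 in controls and 1.52, 3.00 and 1.64 after SN-011 (−0.08, exact permutation p = 0.5), and Cnfn to 8.94, 16.7 and 5.80 against 7.87, 20.6 and 9.89 (0.30, exact permutation p = 0.6). Only for Sprr1a did the groups stand apart, at 77.9, 59.2 and 35.1 counts per 100 in controls against 4.03, 33.2 and 9.87 after SN-011. That difference of −2.31 had an exact permutation p of 0.1, the smallest that 20 relabellings of 3 against 3 allow, and 0.675 after adjustment over the ratios of both tissues. The result depends on the denominator. With the hemidesmosome genes Col17a1 and Itgb4 the ratios of Ivl, Sprr3, Krtdap and Tgm1 turned positive, by 1.58 (Krtdap) to 2.11 (Tgm1). That sum was mostly Itgb4, with 2677, 3138 and 2085 counts in stomach controls beside 82, 91 and 53 of Col17a1. Itgb4 had 1812, 2477 and 2585 counts after SN-011, groups that overlap, unlike Krt5 and Krt14. With Krt15 as denominator only Sprr3 and Tgm1 turned positive.

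In the tongue all 10 ratios to Krt5 and Krt14 were lower after SN-011, by a median of −1.06, and the groups of all 10 overlapped (exact permutation p from 0.3 to 0.6). Lor came to 2.52, 49.1 and 77.8 counts per 100 basal keratin counts in controls 1, 2 and 3 and to 6.71, 7.24 and 4.21 after SN-011. Krtdap came to 3.37, 19.8 and 19.6 in controls and 8.74, 8.46 and 4.02 after SN-011. Control 1 was again the lowest sample of both genes, as it was in CPM.

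**Figure D4:**
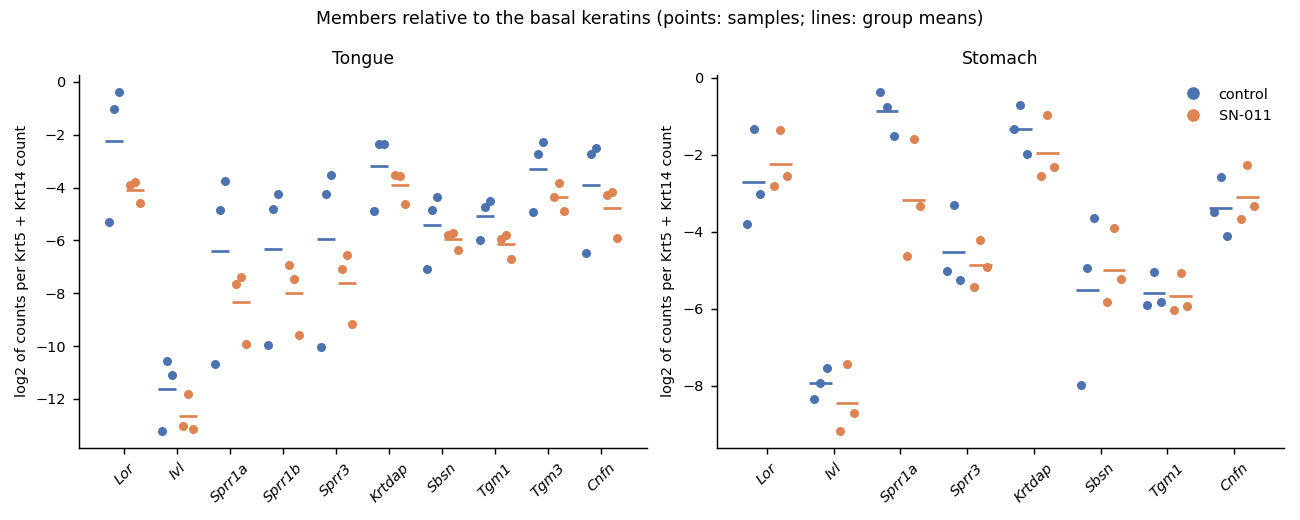
Counts of each member per count of Krt5 and Krt14 together, as log2, in tongue and in stomach, with samples as points and group means as lines. Stomach groups overlap for every member shown but Sprr1a, and in tongue control 1 lies near or below the SN-011 samples.

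A wider list of 55 other envelope genes was read beside the members. In tongue 48 were tested, 47 of the fold changes were negative (median −2.11), 31 were lower at an unadjusted p under 0.05 and 0 passed. Over all genes 7.33% were lower in tongue at that threshold. In stomach 43 were tested, 36 had every SN-011 sample above every control, 1 had every one below, and 0 passed (median fold change 2.63). The background for such a separation was 17.8% above and 15.2% below. The late cornified envelope genes were the most uniform, since all 21 Lce genes in the stomach were higher in every SN-011 sample, with fold changes of 1.30 to 4.03 and adjusted p from 0.0618 to 0.199, and all 19 tested in tongue were negative, from −3.18 to −1.46. The Sprr2 genes did not follow the Lce genes in the stomach. Of 6 tested there, 5 had a negative fold change. Sprr2a3, a small proline-rich protein, had 3562, 1901 and 499.5 CPM in stomach controls and 68.5, 575 and 578 CPM after SN-011 (−2.29 ± 0.90, adjusted p = 0.17). In tongue it had 3.75, 81.8 and 90.4 CPM in controls and 4.72, 3.23 and 0.623 CPM after SN-011 (−4.35 ± 1.17, adjusted p = 0.282), high in the same 2 controls that held gastric transcripts. Sprr2a1, Sprr2a2 and Sprr2a3 are near-identical copies, and how their reads were divided is uncertain.

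The 3 other envelope genes with the highest mean over the 6 tongue samples were Rptn (repetin), Dmkn (dermokine) and Evpl (envoplakin, which ties the envelope to desmosomes). Rptn had a mean of 1322 ± 986 CPM in tongue controls and 558 ± 188 CPM after SN-011 (−1.24 ± 0.69, adjusted p = 0.477), and in stomach 7.27 ± 5.62 against 42.3 ± 9.92 CPM (2.54 ± 0.51, adjusted p = 0.0697). Dmkn gave −1.59 ± 0.67 (adjusted p = 0.399) in tongue and 2.29 ± 0.45 (adjusted p = 0.0672) in stomach. Evpl, with 568 ± 198 CPM in tongue controls and 505 ± 39.2 CPM after SN-011, gave −0.17 ± 0.25 (adjusted p = 0.792) in tongue and 1.33 ± 0.35 (adjusted p = 0.0901) in stomach. Of 17 transcription factors and receptors known from squamous differentiation, 0 passed in either tissue. In tongue 13 of the 17 fold changes were negative, with 4 lower and 0 higher at an unadjusted p under 0.05, and in stomach 9 were positive and 8 negative, with 4 higher and 3 lower at that threshold. The shares over all genes were 7.33% lower and 5.17% higher in tongue, and 13.2% higher and 11.4% lower in stomach.

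**Figure D5:**
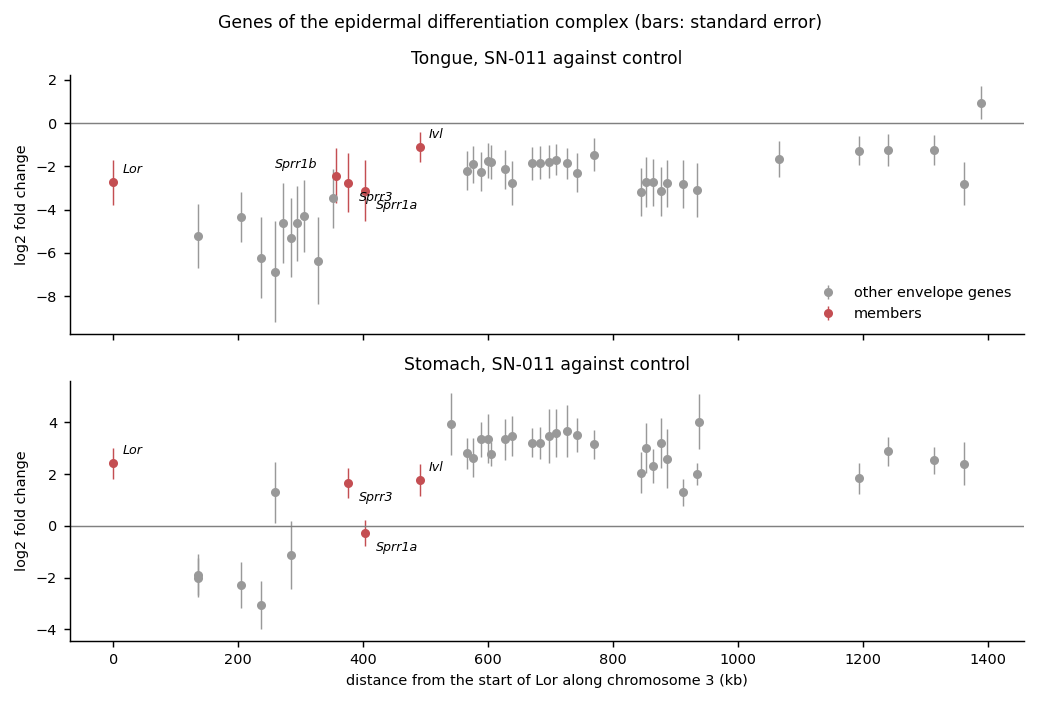
Fold change on the log2 scale of the envelope genes tested in the epidermal differentiation complex, by distance in kilobases from Lor, with bars for the standard error and members in red. In tongue the values are negative along the complex but for 1 gene at its far end, and in stomach they are positive except for most Sprr2 genes and Sprr1a.

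Outside squamous tissue most members were close to absent. In skeletal muscle and heart Sprr3, Cnfn and Sprr1b had 0 counts in all 12 samples. Sbsn was at 1.62 to 4.16 CPM in muscle and 2.42 to 3.42 CPM in heart, and Tgm1 at 0.739 to 2.09 CPM in heart.

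By a rule over the 12 tongue and stomach samples, the genes whose pattern was most like the mean of the 9 members tested in both tissues were looked for among 9217 genes with a mean of at least 10 CPM in both. With log2(CPM + 1) centred within tissue, the 10 with the highest Pearson r were Asprv1 (0.99), Crct1 (0.98), Krt4 (0.97), Ereg (0.97), Fetub (0.96), Spink5 (0.96), Lce1a1 (0.96), Krt13 (0.96), Krt80 (0.95) and Jun (0.95). Of these, Asprv1, Crct1 and Lce1a1 are on the list of other envelope genes, and Krt4 and Krt13 are keratins of the suprabasal layers of internal squamous epithelium. The points share libraries, and the spread of the tongue controls weighs on every one of these values.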

How the data were processed

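PolyA+ RNA of tongue, stomach, skeletal muscle and heart was sequenced as paired reads, and the authors deposited 1 table of raw counts per gene and sample. Per the labels reads were processed with HISAT2 and HTSeq on mm10, while the methods of the study name featureCounts and another sequencer model; filters and the strand setting of the counting are not given in the sources used here. Ensembl IDs were named from GENCODE M21, in which 54495 of 54532 matched.

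Groups were taken from the labels. Counts were tested with edgeR 4.0.16 (quasi-likelihood test, TMM, filterByExpr with a minimum count of 10) within tongue (16587 genes) and within stomach (17031), and in 1 fit of both tissues (18644) for the difference of responses and for the control tissues, with Benjamini-Hochberg adjustment over all genes of a fit. Fold changes used edgeR's default prior count. Ratios to Krt5 and Krt14 were tested by exact two-sided permutation. DESeq2 1.42.0, edgeR's exact test, other scalings and filters, joint fits, a replicate block and each sample left out were alternatives. Scripts were tested on simulated data.

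Members and gene lists were chosen with earlier results of these data known. Named genes were all members and, of the other envelope genes, those past the threshold (at most 5) and the 3 highest in each tissue. For other lists counts and sums are given, with Krt5 and Krt14 named as the denominator of the ratios. Intervals come from the quasi-likelihood fit and so include the spread between samples, while the floor of 3 counts covers counting error only. No 2 samples of a group differed by as little as sampling noise.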

Additional observations from a re-analysis of the deposited data

Results flagged for a closer look

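Lor in heart of SN-011 mice had a mean level of 1.39 ± 0.163 CPM (SD, n = 3), and all 3 samples lay above the control range. The values were 0.435, 0.829 and 0.321 CPM in controls 1, 2 and 3 and 1.28, 1.32 and 1.58 CPM in SN-011 mice 1, 2 and 3, from 6 to 12 counts per control and 19 to 25 counts per SN-011 sample. It was singled out because heart belongs to none of the comparisons made here and the treated samples exceeded every control. The difference was not tested, and the level is far under the 3668 CPM mean of control tongue. How many of all heart genes separate in this way was not counted. In tongue and stomach 9.4% and 17.8% of all genes did so as higher.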

How the results depend on the processing

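With 3 samples a group, leaving out 1 library set how many members passed. In tongue the count over the 6 left-out libraries ran from 0 to 9 members and from 0 to 43 other envelope genes, and only leaving out control 1 moved it. Without control 1, 2135 of the 17142 genes tested passed. In the difference of responses it ran from 0 to 5 members and 0 to 36 other genes, with control 1 of the tongue again the library that moved it (without stomach SN-011 mouse 2, 1 other gene passed). Over all genes 239 of 19426 passed without tongue control 1, and 126 of 19411 without that mouse. In stomach it stayed at 0 members and ran from 0 to 3 other genes, the 3 without SN-011 mouse 2, where 59 of 17877 genes passed. The cause was not tested. DESeq2 passed 4 and the exact test 3 other envelope genes in tongue, where 418 and 253 of all 16587 genes passed. In stomach the members passed were 6 without a count filter, 1 in the joint fit of 12 samples, 3 in that of 24, 6 by DESeq2 and 6 by the exact test. The other genes came to 32, 19, 23, 35 and 34 in those settings, and to 4 under the strict filter of 10 counts in every sample. Over all genes tested, 1368 of 27444, 2270 of 18644, 2738 of 19731, 2389 of 17031 and 1835 of 17031 passed in those settings. Under the strict filter 126 of 14158 passed. In the difference of responses the members were 5 without a filter, 2 in the fit of 24 samples and 4 by DESeq2, and the other genes 36, 8 and 34. The genes passing in all were there 331 of 30950, 162 of 19731 and 754 of 18644. In the comparison of control tissues the background was high, since 5245 of 13112 genes passed under the strict filter, 2626 of them as higher in tongue. Between control tissues the strict filter left 5 of 6 members and 17 other genes, since fewer genes were tested, and leaving out tongue controls 2 and 3 left 28 other genes.

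Same-numbered tongue control and SN-011 samples had correlations of deviations of −0.43, −0.04 and −0.45, and stomach ones −0.09, 0.30 and −0.02. Such values, from 3 samples a group, cannot decide whether the numbers pair control with SN-011 samples. Tongue and stomach samples of the same number had 0.06, 0.23 and −0.13 in controls and −0.10, 0.08 and −0.01 after SN-011. Whether they share a mouse was not settled. With the replicate number as a block, 3 other genes passed in stomach, and 1 member (Sbsn) and 3 other genes in the difference of responses. For that difference the block was the number within a treatment. Over all genes 181 of 17031 passed in the stomach and 4 of 18644 in the difference. No count of ratios past the threshold could be other than 0, since the smallest exact p is 0.1.

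With tongue controls 2 and 3 left out the tongue fold changes turned to 1.62 (Lor), 1.02 (Ivl), 3.08 (Sprr1a), 2.75 (Sprr1b), 3.16 (Sprr3), 1.44 (Krtdap), 1.51 (Sbsn), 0.24 (Tgm1), 0.99 (Tgm3), 2.24 (Cnfn), 1.21 (Rptn), 0.87 (Dmkn) and 0.45 (Evpl). The tongue ratios turned to 1.22 (Lor), 0.57 (Ivl), 2.35 (Sprr1a), 1.99 (Sprr1b), 2.44 (Sprr3), 0.98 (Krtdap), 1.12 (Sbsn), 0.58 (Tgm3) and 1.67 (Cnfn). The difference of responses turned to 3.37 (Sprr1a) and 1.53 (Sprr3), and the control difference to −4.29 (Sprr1a) and −0.053 (Sprr3). With single libraries left out the fold change of Evpl in tongue ran from −0.40 to 0.10 and that of Sprr1a in stomach from −0.70 to 0.38. The tongue ratio of Sbsn ran from −1.35 to 0.014, and the stomach ratios from −0.067 to 1.17 (Lor), −0.69 to 0.27 (Sprr3), −0.70 to 1.46 (Sbsn), −0.39 to 0.19 (Tgm1) and −0.11 to 0.70 (Cnfn). Library size alone turned Sprr1a in stomach (0.0094). With Krt15 as denominator the stomach ratios turned to 0.00056 (Sprr3) and 0.25 (Tgm1), and with Col17a1 and Itgb4 to 1.68 (Ivl), 1.86 (Sprr3), 1.58 (Krtdap) and 2.11 (Tgm1).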

Other observations

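Sprr1a was the member with a clear level outside squamous tissue. In heart it had 44.7, 47.8 and 63.0 CPM in controls 1, 2 and 3 and 22.8, 29.4 and 110.7 CPM in SN-011 mice 1, 2 and 3, groups that overlap. In skeletal muscle its highest level was 0.605 CPM. The heart level was of the order of that in stomach, where the samples ran from 27.9 to 142 CPM, while Sprr1b and Sprr3, its neighbours on chromosome 3, had 0 counts in every heart sample.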
